A study of Arabidopsis thaliana with 6 samples.

Results

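The genes examined here encode the plastid and peroxisome enzymes that make the hormone jasmonate in Arabidopsis thaliana: the lipoxygenases LOX2 (AT3G45140), LOX3 (AT1G17420), LOX4 (AT1G72520) and LOX6 (AT1G67560), the allene oxide synthase AOS (AT5G42650), the allene oxide cyclases AOC1 (AT3G25760), AOC2 (AT3G25770), AOC3 (AT3G25780) and AOC4 (AT1G13280), and the oxophytodienoate reductase OPR3 (AT2G06050). They were picked by locus as the enzymes of these steps, with earlier results of these data known, and all 10 had a probe among the 25383 genes that the array measured, with 18 probes between them out of 43603. Total RNA of whole rosette leaves from 4-week-old wild-type plants was measured on 6 one-colour arrays. In one group 3 samples came from plants kept in ambient air, and in the other 3 came from plants whose air had nitric oxide (NO) mixed in at 3 ppm, at all hours from the end of seed stratification to harvest. Both groups were grown on soil mixed with sand at 20 °C by day and 16 °C by night. Relative humidity was 80% and light 300 µmol per m2 per s in both. Both carried the wild-type genotype with no other treatment given in the labels. How much NO the ambient air held is not stated in the labels. Use of NO as a source of nitrogen is the subject named in the title, and the comparison asked here is which steps of jasmonate synthesis differed in transcript level after growth in NO.

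Jasmonate synthesis starts in the plastid, where a lipoxygenase oxygenates linolenic acid released from membrane lipids. Allene oxide synthase turns the product into an unstable epoxide and allene oxide cyclase closes its ring to give oxophytodienoic acid, which moves to the peroxisome, where OPR3 reduces it before its side chain is shortened by beta-oxidation. Conjugated to isoleucine, jasmonate binds the receptor COI1 together with JAZ repressor proteins and leads to their breakdown, which frees transcription factors such as MYC2. In leaves the pathway is known from wounding and insect attack, and many of its own enzyme genes are induced by the hormone.

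The 3 ambient arrays lay on one slide and the 3 NO arrays on another, each slide scanned in a run of its own, and in every value below a slide effect and an NO effect cannot be told apart. Between 65.2% and 72.0% of gene spots were well above background per array, no gene spot was saturated, and all 10 genes exceeded background clearly on each of the 6 arrays. Of the leaf markers, RBCS1A, RCA, CAB2 and CAB3, genes of carbon fixation and light harvesting, were well above background on every array. Of 6 root genes, RHD6, EXPA7 and CASP1 were above it on none, COBL9 on 3 of the 6 arrays, and SHR and PYK10 on all, as were the 5 flower genes AG, AP3, PI, SEP3 and AP1. The series' design text calls the arrays of a group independent biological experiments.

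In NO-grown rosettes 9 of the 10 jasmonate synthesis genes rose and none fell. Their log2 changes ran from 0.23 to 2.94 and had a median of 0.95. LOX2 rose most, to 7.67-fold, followed by AOC2 at 4.95-fold, AOC1 at 2.94-fold, AOC3 at 2.22-fold and OPR3 at 2.16-fold. AOS, AOC4, LOX4 and LOX3 rose by less than 2-fold, and LOX6 was at 1.18-fold without passing the test. For comparison, 25.8% of all 18614 genes tested were called higher in NO and 32.4% lower, 4.98% were called and at least 2-fold higher, which held for 5 of the 10 genes here, and the median log2 change of all genes was -0.05. Of the 5 genes at least 2-fold higher, AOC3 depends on the setting. It was under 2-fold with normexp background correction (log2 change 0.55) and without ambient replicate 3 (0.97). In all 10 genes the 3 NO arrays lay above the 3 ambient arrays, which was so for 29% of all genes tested. Groups were compared with limma, and p-values were adjusted over all genes tested, with a threshold of 0.05.

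**Figure D1:**
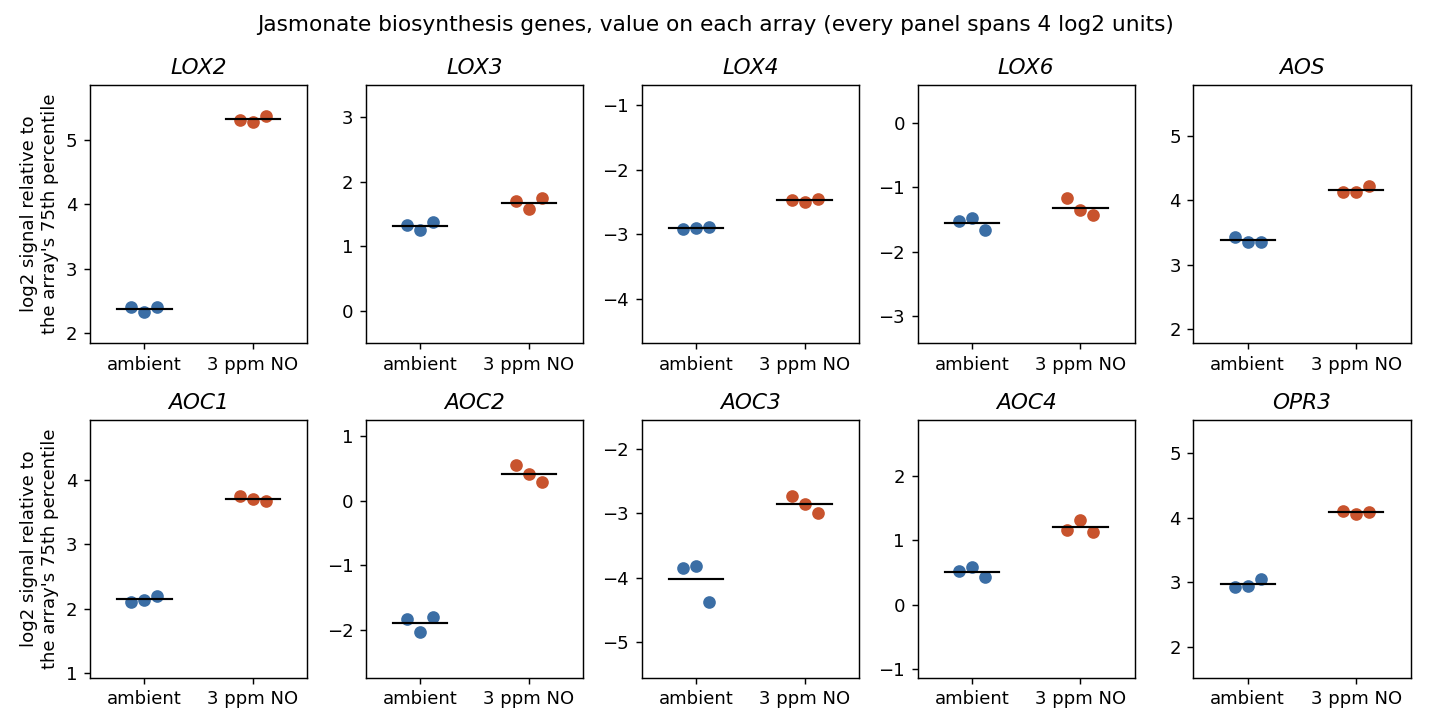
Value of each of the 10 genes on each of the 6 arrays, as log2 signal relative to the array's 75th percentile, with ambient arrays in blue, 3 ppm NO arrays in orange and a black line at each group mean. All panels span the same number of log2 units, so the steps can be compared: LOX2 and AOC2 have the widest gaps between the groups, and in LOX6 the groups nearly touch.

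In the following values the signal of each array was scaled so that its 75th percentile is 1000, and ± gives the SD over 3 arrays. LOX2 encodes the plastid lipoxygenase that supplies most of the jasmonate made in wounded leaves. Its scaled signal was 5284, 5041 and 5333 in ambient air and 39843, 38843 and 41348 in NO. The NO mean of 40011 ± 1261 stood far above the ambient mean of 5219 ± 157, and no array came near the other group. The log2 change was 2.94 ± 0.05 (SE) with an adjusted p of 5.19e-07 in limma, larger than that of 99.7% of the genes tested.

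The other plastid lipoxygenase genes changed little. LOX3, which together with LOX4 is required for male fertility, gave 2507, 2392 and 2607 in ambient air and 3271, 2979 and 3364 in NO. Its log2 change of 0.36 ± 0.07 passed at an adjusted p of 0.00361, but not with the source-name numbers as a replicate block (0.32, adjusted p = 0.0723). In that block fit the change rests only on arrays whose number occurs in both groups. LOX4 was at 132, 133 and 135 in ambient air and at 180, 177 and 183 in NO. The spread within each LOX4 group was so narrow that a log2 change of 0.43 ± 0.04 had an adjusted p of 0.000296.

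LOX6, known for expression near the xylem and for a part in the rapid wound response, was the gene closest to no change. Its scaled signal was 350, 360 and 318 in ambient air and 445, 395 and 370 in NO. The lowest NO array was above the highest ambient array by 0.04 on the log2 scale, and the log2 change of 0.23 ± 0.08 missed the threshold with an adjusted p of 0.0504. Under 18 alternative settings LOX6 passed in 8, with log2 changes of 0.16 to 0.31, so its call depends on the setting. Leaving out NO replicate 3, the lowest of its group, gave 0.29 and an adjusted p of 0.0333.

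AOS, the single allene oxide synthase gene among the 10, had a scaled signal of 10732, 10219 and 10204 in ambient air and of 17436, 17511 and 18637 in NO. The 3 NO arrays lay close together and well clear of the ambient arrays. This was a 1.72-fold rise (log2 change 0.78 ± 0.05, adjusted p = 4.67e-05).

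The allene oxide cyclase genes rose by unequal amounts. AOC1 gave 4325, 4411 and 4613 in ambient air and 13523, 13017 and 12755 in NO, a log2 change of 1.56 ± 0.05 (adjusted p = 3.39e-06). AOC2 was dimmer, at 281, 244 and 288 in ambient air and 1467, 1340 and 1220 in NO. Its log2 change of 2.31 ± 0.09 (adjusted p = 6.82e-06) exceeded that of 99.4% of the genes tested.

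AOC3 was the dimmest of the 10 probes, with 69.0, 71.0 and 48.3 in ambient air and 151, 137 and 126 in NO. Ambient replicate 3 was the low one, and without it the log2 change was 0.97 in place of 1.15 ± 0.16 (adjusted p = 0.000982 with all arrays). With normexp background correction, which compresses low signals, AOC3 was at 0.55. AOC4, the cyclase gene apart from the others in the genome, gave 1430, 1505 and 1346 in ambient air and 2240, 2475 and 2178 in NO. Its rise was 1.61-fold (log2 change 0.69 ± 0.07, adjusted p = 0.000292).

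AOC1, AOC2 and AOC3 follow each other as neighbouring genes on chromosome 3 in the RefSeq gene table, and AOC4 lies on chromosome 1. They are close relatives, as are LOX3 and LOX4. Cross-hybridization between relatives was not tested, so the split of signal among them is uncertain.

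OPR3, the gene of the peroxisomal reductase that follows the plastid steps, was at 7624, 7649 and 8278 in ambient air and at 17236, 16612 and 16966 in NO. The groups were separated by 1.00 on the log2 scale between the lowest NO and the highest ambient array. The log2 change was 1.11 ± 0.05 with an adjusted p of 1.32e-05.

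Over all probes of these genes, 15 of 18 were called higher in NO and none lower, where 25.9% of the 29702 probes tested were called higher. Probes of one gene share its transcript and are not replicates. The 4 probes of LOX2 gave log2 changes of 2.94, 3.22, 3.17 and 3.19, or 7.67-fold to 9.34-fold, and the brightest of them had the smallest change. Both probes of OPR3 gave nearly the same change, at 1.11 and 1.12, although the 2 spots of its dimmer probe differed by 1.27 on NO replicate 1. The dimmer probe of AOC1 rose more than its bright one, with 1.92 ± 0.08 against 1.56 ± 0.05.

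The probes of LOX3 also differed in size. Its 4 probes, from bright to dim, gave log2 changes of 0.36, 0.24, 0.72 and 0.15, and the second and the fourth did not pass (adjusted p = 0.0764 and 0.551 in limma). The fourth was also the single probe of the 18 whose groups overlapped, since its signal on NO replicate 2 lay below all ambient arrays. In 17 of 18 probes the NO arrays were all above the ambient arrays, against 29.8% of all probes.

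**Figure D2:**
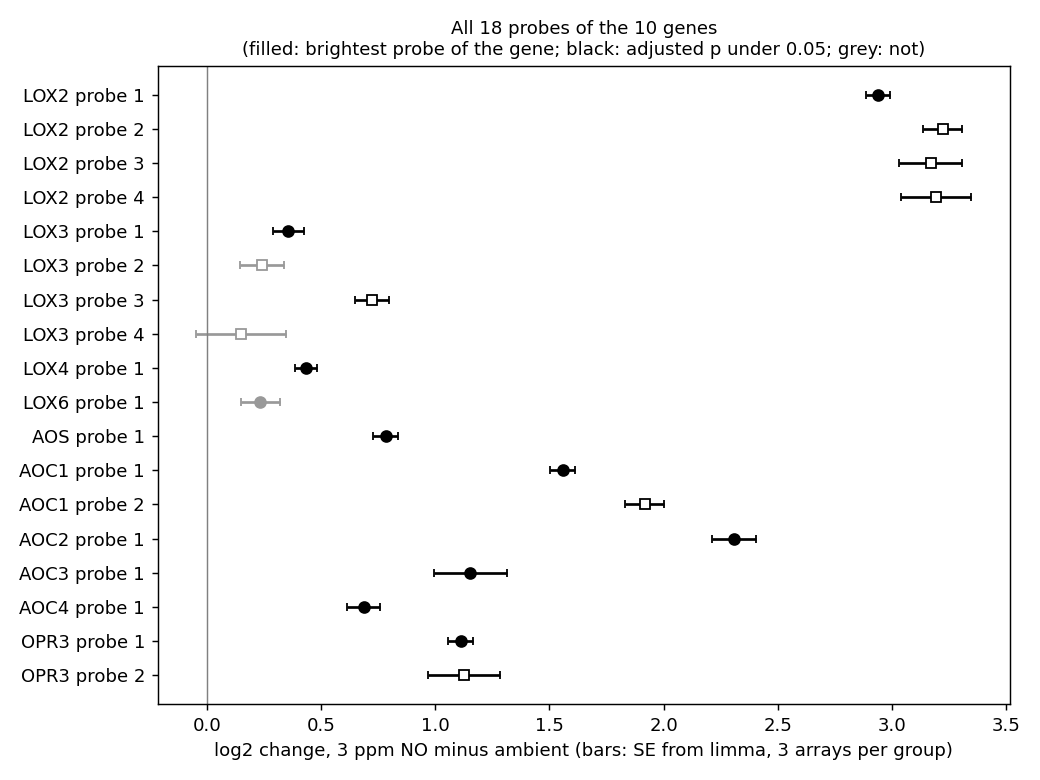
Log2 change of each of the 18 probes between 3 ppm NO and ambient arrays, with SE bars from limma over 3 arrays per group, probes of a gene ordered from bright to dim. The 4 LOX2 probes sit together near 3, the 4 LOX3 probes spread from 0.15 to 0.72, and the 3 grey points are the probes that did not pass the test.

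Whether members changed by unequal amounts was examined in 9 pairs from the log2 ratio of both genes on each array, which does not depend on the scaling of an array. With 3 arrays against 3 the exact two-sided permutation test cannot go below p = 0.10, so no pair could pass a threshold of 0.05. After Benjamini-Hochberg adjustment over the 9 pairs the smallest p of this test was 0.15. In 6 of the 9 pairs the ratios of the groups did not overlap, a share near the 66.2% found over all pairs of tested genes, so the count says nothing particular of these genes and the sizes are given as values. The log2 change of LOX2 was above that of AOS by 2.16 ± 0.03 (SE), above that of OPR3 by 1.83 ± 0.04 and above that of LOX6 by 2.70 ± 0.12, each at the smallest exact p of 0.10.

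Among the cyclases, the log2 change of AOC1 was smaller than that of AOC2 (AOC1 minus AOC2 -0.75 ± 0.09, exact p = 0.10) and larger than that of AOC4 by 0.87 ± 0.09. That of AOC2 exceeded AOC4 by 1.62 ± 0.14. The remaining pairs overlapped between the groups: AOC1 against AOC3 at 0.41 ± 0.21 (exact p = 0.30; 0.97 with normexp and 0.61 without ambient replicate 3), LOX3 against LOX6 at 0.12 ± 0.13 (exact p = 0.40), and LOX3 against LOX4 at -0.08 ± 0.05 (exact p = 0.30). The sign of the difference between LOX3 and LOX4 turned with normexp, to 0.10.

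Markers of leaf cell types moved beside these genes. The counts below stand against 25.8% of all genes tested called higher and 32.4% called lower. The sums cover every listed gene with a probe. Those of the vascular, trichome and root lists therefore include genes that were not tested. All 4 mesophyll genes named above were called higher, and their summed scaled signal ranged from 640172 to 686538 on the ambient arrays and from 1067637 to 1373293 on the NO arrays. RCA was the exception to a rise under one scaling, with a log2 change of -0.13 after quantile normalization in place of 0.42. Of 8 tested vascular genes, 5 were called higher and 2 lower, with sums of 27778 to 28977 and of 31332 to 31693, and the xylem protease genes XCP1 and XCP2 were among the higher ones at 0.75 and 1.23. The phloem genes SUC2 and APL were the lower ones at -0.17 and -0.32, and ATHB8, a gene of early vascular cells, was at 0.22 without passing. Of 5 epidermal genes 4 were called higher (sums of 37411 to 39323 and of 46323 to 47342). Among them LTP1 was the brightest and rose most, at 0.60, and CUT1, the next brightest, was at -0.09 without passing. By the mean of its probes CUT1 was at 0.15, so its direction depends on the probe. Of 5 guard cell genes 1, GC1, was higher and 4 lower (10770 to 11242 and 13779 to 15124, but 5449 to 5602 and 4002 to 4165 without GC1), and of 3 tested trichome genes 2 were higher and 1 lower (1315 to 1350 and 1442 to 1522). Of 5 flower genes 3 were called higher, with sums of 710 to 877 and of 893 to 959, and of 2 tested root genes, SHR and PYK10, PYK10 was higher (sums of 744 to 827 and of 894 to 971). Some of these calls depend on the setting: AP3 was at -0.04 with normexp in place of 0.43 and passed in 8 of 18 alternatives, and AP1 passed in 10. PYK10 passed in all 18, but was at 0.36 with normexp in place of 0.94. The vascular genes SWEET11 and SUC2 passed in 5 and 11 of 18, and the guard cell gene KAT1 in 7. For the epidermal genes FDH and PDF2 it was 9 and 10, and for the trichome gene MYB106 11. The part of these shifts in the values of the jasmonate genes was not tested, and in whole leaves more cells of a type and more RNA per cell cannot be told apart.

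Upstream of the lipoxygenases, 5 of 6 tested genes of precursor supply were called higher and 1 lower, with a median log2 change of 0.32. Over all genes tested, 25.8% were called higher and 32.4% lower. The count called higher was 3 with normexp and 2 with the source-name numbers as a replicate block. FAD8 and FAD7, plastid desaturase genes that make linolenic acid, were 2.04-fold and 1.54-fold higher (adjusted p = 1.97e-05 and 0.000213). PLA-Igamma1, a plastid lipase gene, was at 0.37 ± 0.08, and at 0.09 and not passing with normexp. DALL2, a gene of the same lipase family, fell by 0.28 ± 0.05. The lipase genes DAD1 and DGL were not well above background on any array and were not tested.

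Of 5 tested genes of neighbouring oxylipin branches 2 were called higher and 2 lower, where 25.8% and 32.4% of all genes tested were, so calls in both directions are not particular to them. LOX1, a lipoxygenase gene outside jasmonate synthesis, fell by 1.00 ± 0.09 on the log2 scale (adjusted p = 0.000145), whereas LOX5, of the same class, rose by 0.68 ± 0.09 (0.31 with normexp). HPL1, the hydroperoxide lyase gene whose enzyme draws on the same substrate as AOS to make leaf volatiles, was 1.97-fold higher (adjusted p = 6.17e-05). OPR2, a relative of OPR3 in the cytosol, fell by 0.51 ± 0.06, and OPR1 was at 0.07 ± 0.05 and did not pass. The OPR1 value depends on the setting, with -0.03 after quantile normalization and 0.27 by the mean of its probes. It passed in 1 of 18 alternatives.

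Of 10 tested genes of the later steps after OPR3, 2 were called higher, 1 lower and 7 neither, with a median log2 change of -0.09. Leaving out 1 array moved these counts: 1 was called higher without ambient replicate 1 or NO replicate 1 and 3 without NO replicate 3, and 2 were called lower without ambient replicate 1. Over all genes tested 25.8% were called higher and 32.4% lower, so the share of later genes called higher lies near the background. OPCL1, which encodes the ligase that activates the OPR3 product for beta-oxidation, was 1.88-fold higher (adjusted p = 6.25e-05). ACX5, an acyl-CoA oxidase gene, was at 0.21 ± 0.06 and passed in 14 of 18 alternatives, and KAT5, a thiolase gene, fell by 0.45 ± 0.05. ACX1 and KAT2, the oxidase and thiolase genes best known for jasmonate synthesis, were at -0.07 ± 0.05 (adjusted p = 0.222) and 0.14 ± 0.05 (adjusted p = 0.0525). The transporter genes JASSY and PXA1 were at -0.14 ± 0.07 and -0.11 ± 0.06 without passing.

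**Figure D3:**
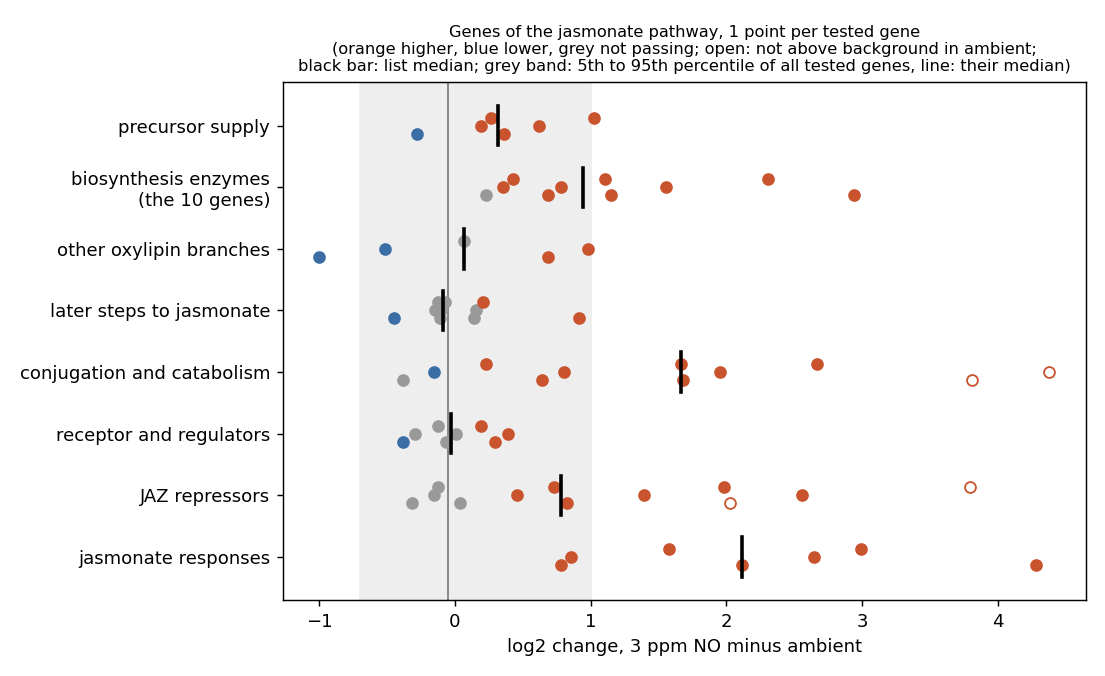
Log2 change between 3 ppm NO and ambient of every tested gene in 8 lists of the jasmonate pathway, 1 point per gene (orange called higher, blue lower, grey neither, open where no ambient array was above background), with the list median over all these points as a black bar and the range from the 5th to the 95th percentile of all tested genes in grey. The medians are 0.95 for the biosynthesis enzymes, 0.32 for precursor supply, -0.09 for the later steps and 2.12 for jasmonate responses.

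Of the genes that act on finished jasmonate by conjugation and catabolism, 8 were well above background on all 6 arrays, of which 6 were called higher and 1 lower, with a median log2 change of 0.72. A further 3, CYP94B1, JOX4 and ST2A, were tested only through the NO arrays, where they are high, and were called higher, which gives 9 of 11 and a median of 1.67 with them. Over all genes tested, 25.8% were called higher and 32.4% lower. JOX2, a jasmonate oxidase gene, was 6.36-fold higher, its relative JOX4 was at least 5.31-fold higher, its ambient signals being too low to measure (1.05 on the log2 scale with normexp), and ILL6 and CYP94C1, an amidohydrolase gene and a cytochrome P450 gene of jasmonate turnover, were 3.18-fold and 3.21-fold higher. With normexp the log2 changes of JOX2, ILL6 and CYP94C1 were smaller, at 1.90, 1.05 and 1.25 in place of 2.67, 1.67 and 1.68. JAR1, whose enzyme joins jasmonate to isoleucine, was lower by its brightest probe (log2 change -0.15 ± 0.05, adjusted p = 0.0329), but the mean over its probes was 0.29, so its direction depends on the probe. The JOX4 bound sets the NO mean against the lowest signal well above background on each ambient array, or the gene's own signal where that was higher. It does not hold with normexp, where the change of JOX4 lay below it.

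Of 10 JAZ repressor genes well above background on all 6 arrays, 6 were called higher and none lower, with a median of 0.59, although up to 2 were called lower under other settings. JAZ7 and JAZ8 were tested only through the NO arrays, and with them 8 of 12 were called higher, with a median of 0.78. JAZ10 was 5.88-fold (log2 change 2.56, or 1.87 with normexp), JAZ9 3.96-fold and JAZ6 1.77-fold higher, and JAZ8, not above background on any ambient array, was at least 4.07-fold higher. With normexp JAZ8 was at 0.89 on the log2 scale, below that bound. The receptor and regulator genes had a median of -0.03, with 3 of 8 called higher and 1 lower, against 25.8% and 32.4% of all genes tested. Over the alternatives these counts ran from 1 to 4 higher and from 1 to 2 lower, with 2 lower when ambient replicate 1 or NO replicate 1 was left out. MYC2 and MYC4 were at 0.39 ± 0.07 and 0.30 ± 0.07, JAM1, a repressing relative of MYC2, was at 0.20 ± 0.06 and passed in 10 of 18 alternatives, and COI1 fell by 0.38 ± 0.07. ORA47, a regulator gene known to activate the biosynthesis genes, was well above background on 1 of 6 arrays and was not tested. All 7 tested jasmonate response genes were called higher, with the defensin gene PDF1.2 at 4.28 ± 0.07, JR2 at 2.99 ± 0.07, the chlorophyllase gene CLH1 at 2.64 ± 0.05 and the aminotransferase gene TAT3 at 2.12 ± 0.06. VSP1, a gene for a storage protein and the smallest riser of these, was at 0.78 ± 0.13 by its brightest probe but at 0.04 by the mean of its probes. With the mean of probes, 6 of the 7 response genes were called higher. Among all genes tested, 25.8% were called higher, and 58.2% were called in one direction or the other.

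The genes whose values over the 6 arrays were most like those of LOX2, AOS and OPR3 were found among 8358 tested genes with a symbol, by the root mean square difference after each gene was centred on its own mean. With 2 groups that differ in most genes, this mainly finds genes of equal change. LOX2 was most like PORB, a gene of chlorophyll synthesis (difference 0.05 on the log2 scale), then LBD37, a nitrogen-responsive repressor gene, and LHCB2.3, a light-harvesting gene. AOS was most like PLAT3, CH1 and LNG1 (0.03 each), and OPR3 like TSB1, a gene of tryptophan synthesis, PnsL4 and CRB (0.03 each).

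The changes of the 10 genes were recomputed under 18 other settings of background correction, scaling, filter, probe choice, test and samples. All 10 kept a positive log2 change in each, 9 genes were called higher in 11 settings and all 10 in 7. LOX2 ran from 2.77 to 3.13, AOC2 from 2.01 to 2.40, AOC1 from 1.51 to 1.74, OPR3 from 1.02 to 1.15 and AOS from 0.66 to 0.85. LOX3 lost its call in 1 of the 18.

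**Figure D4:**
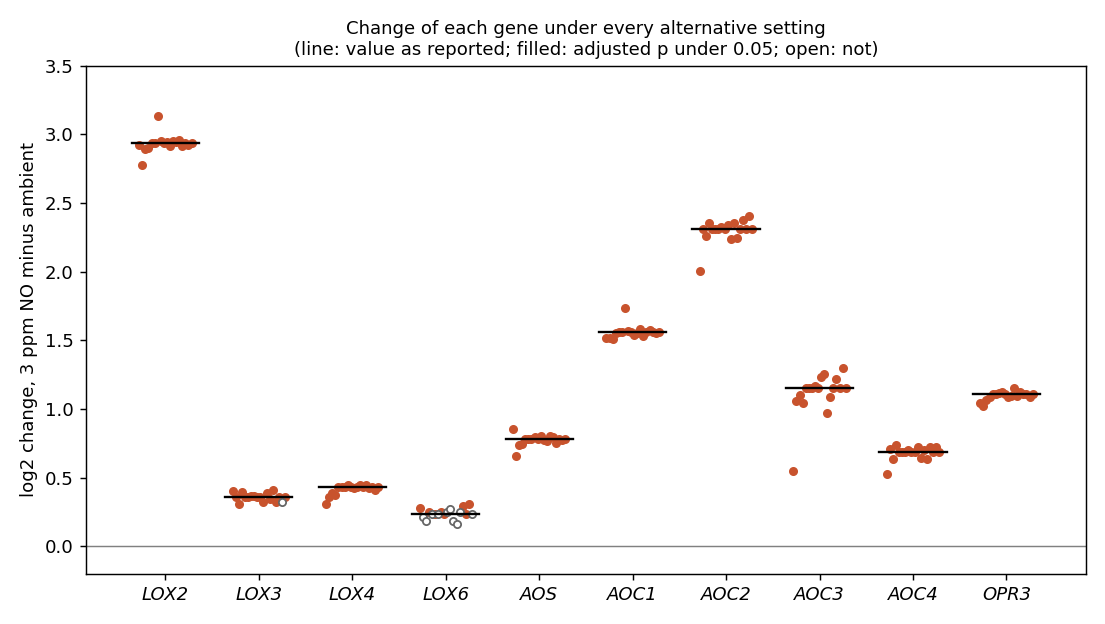
Log2 change between 3 ppm NO and ambient of each gene under each of 18 alternative settings, as points around the reported value (black line), filled where the adjusted p in limma was under 0.05. LOX6 has both filled and open points, LOX3 has 1 open point, and the lone low point of AOC3 is its normexp value of 0.55.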

How the data were processed

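The deposited scanner files give linear spot intensity after background correction. The software was Agilent Feature Extraction, for which the file headers give version 10.7.3.1 and the submitters' processing notes 10.5. In the deposited value table of the series, the authors gave log2 values that against the scanner values had the same direction and scale and a centre at each probe's median (r of at least 0.9999 on each array), so none of these stays unknown; its column medians were 0.03, 0.04 and -0.02 for ambient replicates 1 to 3 and 0.02, -0.07 and -0.03 for NO replicates 1 to 3, and it served as an alternative. Here log2 of the processed signal minus the array's 75th percentile was used, without control spots and outlier-marked spots (5 to 18 gene spots per array), with spots of a probe averaged. Probes were named through RefSeq transcripts of TAIR10.1 (34285 of 43603 matched 1 locus), and no coordinates are given because the headers name an older build. A gene was its brightest probe, tested where all spots were well above background on all 3 arrays of a group. Two-sided tests came from limma 3.58.1 (lmFit, eBayes; R 4.3.3), adjusted by Benjamini-Hochberg and checked on simulated data. Folds and ± SE are from limma. Precision is limited by the number of arrays.

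The genes and lists were chosen with earlier results of these data known. Named were all 10 genes, from each pathway list up to 4 called genes with the smallest adjusted p and every called gene that fell, and the 3 genes most like each of LOX2, AOS and OPR3. OPR1, ACX1, KAT2, JASSY, PXA1, VSP1, the named marker genes and the genes without a test were singled out after their values were seen. Alternatives were normexp (offset 50, on median signals because the files used hold no mean signal), quantile, median and cyclic loess scaling, other filters, the mean of probes, an intensity trend, the series matrix, leaving out each array, and the replicate numbers as a block. Sequences were not used here. Same-numbered arrays did not deviate together, so the numbers were not taken to pair samples.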

Additional observations from a re-analysis of the deposited data

Results flagged for a closer look

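One signal outside the comparison stood out. The spike-in control transcripts, which are added to the labelling reaction and do not come from the plants, were brighter on the NO slide: all 5 control probes that were well above background on every array were brighter on each NO array than on any ambient array, by 14.5-fold to 54.0-fold in unscaled signal, with 54.0-fold for the brightest of them. Their part in the values of the jasmonate genes was not tested.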

How the results depend on the processing

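The count of jasmonate synthesis genes called higher was 9 or 10 under all 18 alternatives, of which 1, a looser rule for probes above background, was added after the data were seen. The median log2 change of the 10 genes, 0.95 as reported, was 0.70 with normexp, 0.86 with quantile normalization, 0.90 with median scaling, 0.89 with cyclic loess, 0.96 with the series matrix values and 0.87 to 0.96 when 1 array was left out. The difference between LOX3 and LOX4 turned from -0.08 to 0.10 with normexp and to 7e-04 with quantile normalization, and the cause was not tested. JAR1 turned to 0.29 with the mean of its probes. The numbers in the titles did not pair the samples (correlation of deviations from the group means -0.08, -0.04 and 0.05 for same-numbered arrays), and neither did those in the source names, which run from 2 to 4 in the NO group (0.02 and -0.12). With the title numbers as a replicate block the median was 0.95 and 10049 genes were called, and with the source-name numbers as a replicate block the median was 0.93, 7103 genes were called in place of 10830, 10428 probes were called in place of 15729, LOX3 did not pass (adjusted p = 0.0723) and LOX6 did (adjusted p = 0.0462). In the source names only the numbers 2 and 3 occur in both groups, so the change in that block fit rests on the arrays with these numbers alone. Not every sample correlated best with its own number. Counts in the pathway lists moved by more than 1.5 times in places: called-higher genes ran from 2 to 5 for precursor supply, from 1 to 4 for the later steps and from 1 to 4 for receptor and regulators, and called-lower genes from 0 to 2 for the JAZ repressors and for conjugation and catabolism and from 1 to 2 for the later steps and for receptor and regulators. With normexp the log2 changes of AOC2, AOC3, AOC4 and LOX4 were 2.01, 0.55, 0.52 and 0.30 in place of 2.31, 1.15, 0.69 and 0.43, and the cause was not tested.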

Other observations

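The protein-coding genes next to the 10 genes in the RefSeq gene table, were looked up after the data were seen. Of 16 neighbours that are not themselves members, 9 were tested, of which 1 was called higher, 2 lower and 6 neither, where 25.8% of all genes tested were called higher and 32.4% lower. The one called higher was LAS1, a lanosterol synthase gene beside LOX2, with a log2 change of 0.56 (adjusted p = 0.000925 in limma).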
